A study of Mus musculus with 38 samples.

Results

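Imprinted genes were followed through the differentiation of mouse embryonic stem cells (mESCs) towards 2 lineages, ectoderm-like cells and cells that resemble extraembryonic endoderm (XEN-like cells). The 10 genes are Mest, Copg2, Grb10, Zdbf2, H19, Igf2, Peg3, Dlk1, Meg3 and Cdkn1c, of 23481 genes in the bulk table, and each was found by its symbol in the bulk, SCRB-seq and SMART-seq2 data. They were chosen with results of these data known. Mest, Copg2, Grb10 and Zdbf2 were among the genes with the largest fold in the ectoderm-like cluster of SCRB-seq cells at 96 h, so their levels in that cluster are given as a description only, and the p-values of the bulk libraries below are not independent support for the choice. All samples came from the E14 mESC line. The mESCs were held in 2i/L medium with the MEK inhibitor PD0325901, the GSK3 inhibitor CHIR99021 and LIF, and all other samples came from cells moved to N2B27 medium with 0.25 µM all-trans retinoic acid (RA).

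The 25 bulk libraries covered mESCs (2 libraries), whole cultures from 6 h to 96 h of RA (1 library per time point) and populations sorted by fluorescence on the surface proteins CD24 and PDGFRA. Ectoderm-like cells (PDGFRA-/CD24+) and XEN-like cells (PDGFRA+/CD24-) were sorted at 96 h as 2 biological replicates each. At 48 h, PDGFRA- cells were split by CD24 staining into quartiles (Q1 lowest, Q4 highest), and at 72 h into terciles (T1 to T3) beside PDGFRA+/CD24- cells, with 1 library per gate. Sorted ectoderm-like cells were also grown to passage 5 on poly-D-lysine and laminin, and sorted XEN-like cells were grown for 3 weeks and propagated as floating aggregates, both in N2B27 with 20 ng/ml EGF and 10 ng/ml FGF2 and with 1 library each. Single cells were measured by SCRB-seq at 9 time points (2448 cells with more than 2000 UMIs, from 9 plates whose wells share their names) and by the full-length method SMART-seq2 at 0, 12, 24 and 48 h (339 cells). A UMI is a molecular tag by which each captured RNA molecule is counted once, and bulk levels are UMIs per 1000000 of the library (CPM). The bulk libraries held between 1063830 and 2459483 UMIs.

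An imprinted gene is transcribed mainly from the copy inherited from 1 parent, because the parental copies carry different DNA methylation at an imprinting control region, and this mark is kept through the cell divisions of the early embryo. The zinc finger protein ZFP57 binds a methylated hexamer there and brings the cofactor TRIM28, which helps to keep the mark. Many imprinted genes act on growth: paternally expressed genes such as Igf2, Mest, Peg3 and Dlk1 tend to promote it, while maternally expressed genes such as H19, Cdkn1c and, in most tissues, Grb10 tend to restrain it. The counts carry no information on the parental copy, so what follows concerns the summed level of both.

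The genes lie at 6 places of the genome (GRCm38, GENCODE M21). Mest (chr6:30723547-30748465, plus strand) and Copg2 (chr6:30747554-30896794, minus strand) meet tail to tail. H19 (chr7:142575529-142578143, a long non-coding RNA, minus strand) and Igf2 (chr7:142650766-142666816, minus strand) are 72.6 kb apart, and Cdkn1c (chr7:143458339-143461050, minus strand) lies 792 kb beyond Igf2. Dlk1 (chr12:109452823-109463336, plus strand) and the non-coding RNA Meg3 (chr12:109541001-109571726, plus strand) are separated by 77.7 kb. Peg3 (chr7:6703892-6730431, minus strand), Grb10 (chr11:11930508-12038683, minus strand) and Zdbf2 (chr1:63273265-63314576, plus strand) lie apart from the others.

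RefSeq start sites with the 250 bases before them (build GRCm38.p6) were found for 8 of the 10 genes, 16 windows in all. They are shown for Mest, Zdbf2 and Grb10, members that were lower in XEN-like than in ectoderm-like cells, with both annotated starts of Zdbf2 and Grb10. Capitals mark TGCCGC, the hexamer bound by ZFP57, on either strand (as GCGGCA on the other strand).
Mest, chr6:30737800-30738049, plus strand: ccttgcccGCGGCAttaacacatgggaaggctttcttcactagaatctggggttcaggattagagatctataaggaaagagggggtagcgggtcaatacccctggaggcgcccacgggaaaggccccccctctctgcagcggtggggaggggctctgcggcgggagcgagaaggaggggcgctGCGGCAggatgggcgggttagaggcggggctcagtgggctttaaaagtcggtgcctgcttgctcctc
Zdbf2, chr1:63200108-63200357, plus strand: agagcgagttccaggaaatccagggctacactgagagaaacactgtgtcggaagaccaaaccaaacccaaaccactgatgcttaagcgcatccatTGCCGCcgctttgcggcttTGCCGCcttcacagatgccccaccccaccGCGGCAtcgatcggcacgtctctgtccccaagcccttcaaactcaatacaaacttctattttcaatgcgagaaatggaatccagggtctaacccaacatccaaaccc
Zdbf2, chr1:63273019-63273268, plus strand: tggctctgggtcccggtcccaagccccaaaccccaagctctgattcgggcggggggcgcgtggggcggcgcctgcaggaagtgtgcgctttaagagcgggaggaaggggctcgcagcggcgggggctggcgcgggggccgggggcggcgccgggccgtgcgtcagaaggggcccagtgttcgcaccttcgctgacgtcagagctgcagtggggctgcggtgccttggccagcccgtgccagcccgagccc
Grb10, chr11:12037421-12037670, minus strand: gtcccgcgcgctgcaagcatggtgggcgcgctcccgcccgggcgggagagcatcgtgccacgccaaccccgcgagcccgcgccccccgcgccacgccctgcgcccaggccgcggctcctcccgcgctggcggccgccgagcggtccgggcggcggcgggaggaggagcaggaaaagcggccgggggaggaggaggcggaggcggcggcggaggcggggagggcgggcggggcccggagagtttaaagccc
Grb10, chr11:12027972-12028221, minus strand: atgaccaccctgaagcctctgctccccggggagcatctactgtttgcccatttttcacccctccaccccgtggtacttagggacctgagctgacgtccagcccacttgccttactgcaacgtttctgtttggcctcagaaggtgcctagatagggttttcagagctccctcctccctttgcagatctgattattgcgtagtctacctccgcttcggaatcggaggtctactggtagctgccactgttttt
The hexamer occurred 2 times in the Mest window shown, 3 times in the upstream Zdbf2 window and 1 time each in the Copg2 window and in 1 window of Meg3. It was not in the second Zdbf2 window, the Mest window farther upstream, the other Meg3 window or any window of Grb10, Igf2, Peg3 and Dlk1. Of all 32851 promoter windows of this length, 8.68% held a match and 0.874% held 2 or more. The letters describe these windows and show no binding.

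Before the comparison of the lineages, the sorts were checked by their markers. All 11 XEN markers (such as Gata4, Gata6, Sox17 and Lama1) were higher in sorted XEN-like than in sorted ectoderm-like cells, and all 11 ectoderm markers (such as Sox11, Nes, Pax6 and Crabp1) were lower (edgeR's quasi-likelihood test over 8947 genes, adjusted p under 0.05). The libraries were not free of other markers. Summed pluripotency markers stood at 6267 and 4524 CPM in the XEN-like libraries against 790 and 432 CPM in the ectoderm-like libraries and 13436 and 18353 CPM in mESCs. Most of that sum was Dppa5a, at 5947 and 4351 CPM in the XEN-like libraries, and all 12 pluripotency markers were lower in XEN-like cells than in mESCs (median log2 difference -4.60), while 5 were higher and 1, Sox2, lower than in ectoderm-like cells. Summed XEN markers stood at 485 and 1779 CPM in the ectoderm-like libraries against 281 and 197 CPM in mESCs. The 6 mesoderm markers summed to 4 CPM in each XEN-like library and to 19 and 10 CPM in the ectoderm-like libraries. The part of these markers' cells in the values of the imprinted genes was not tested.

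Most of the imprinted genes were lower in XEN-like than in ectoderm-like cells. Of the 9 that had enough counts for the test, 6 were lower and 0 higher, where 5.74% of all tested genes were lower and 6.99% higher. In 7 of the 9 the libraries of the groups did not overlap, which was so for 57.7% of all tested genes. The median log2 difference was -1.88 over the 9 genes and -0.06 over all genes tested. Mest, Grb10 and Cdkn1c had the largest differences and are given first.

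Mest encodes a membrane protein of the endoplasmic reticulum with a hydrolase fold and is a paternally expressed gene of mesodermal and other embryonic tissues. It was counted at 441 and 439 CPM in the 2 ectoderm-like libraries, 27.4 and 18.2 CPM in the 2 XEN-like libraries and 31.1 and 10.0 CPM in the 2 mESC libraries. XEN-like cells were thus 17.7-fold lower than ectoderm-like cells (log2 difference -4.15 ± 0.43 SE, n = 2 against 2, edgeR adjusted p = 0.000675), and their values overlapped with those of mESCs. Ectoderm-like cells were 17.4-fold above mESCs (log2 4.12 ± 0.43 SE, edgeR adjusted p = 8.3e-05).

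Grb10, an adaptor protein that binds the insulin and IGF1 receptors and restrains their signal, stood at 109 and 131 CPM in ectoderm-like, 11.7 and 9.11 CPM in XEN-like and 3.94 and 16.1 CPM in mESC libraries. The XEN-like libraries lay between the mESC libraries, and both ectoderm-like libraries lay far above. The difference between the lineages was 10.6-fold (log2 -3.41 ± 0.52 SE, edgeR adjusted p = 0.00256).

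Cdkn1c encodes p57, an inhibitor of cyclin-dependent kinases. Its level was 34.5 and 31.7 CPM in sorted ectoderm-like, 3.56 and 2.73 CPM in XEN-like and 1.75 and 0.871 CPM in mESC libraries, so that the groups did not overlap. XEN-like cells were 9.47-fold lower than ectoderm-like cells (log2 -3.24 ± 0.46 SE, edgeR adjusted p = 0.00178).

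Copg2, a subunit of the coat of vesicles that return from the Golgi, followed Mest with a smaller difference. It was counted at 197 and 207 CPM in ectoderm-like, 28.4 and 29.2 CPM in XEN-like and 54.7 and 48.8 CPM in mESC libraries. Here the XEN-like libraries were lowest: they were 6.54-fold below ectoderm-like cells (log2 -2.71 ± 0.29 SE, edgeR adjusted p = 0.00069) and 2.07-fold below mESCs (log2 -1.05 ± 0.29 SE, edgeR adjusted p = 0.0206). The call against mESCs was lost without any 1 of those 4 libraries (edgeR adjusted p between 0.0522 and 0.189).

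Zdbf2, a zinc finger gene of which little is known at the protein level, took another course. The mESC libraries held 20.6 and 34.4 CPM, the ectoderm-like libraries 51.1 and 30.4 CPM and the XEN-like libraries 11.2 and 9.11 CPM. Values of mESCs and ectoderm-like cells overlapped, and XEN-like cells lay below both, 3.69-fold lower than ectoderm-like cells (log2 -1.88 ± 0.42 SE, edgeR adjusted p = 0.0136) and 3.12-fold lower than mESCs (log2 -1.64 ± 0.42 SE, edgeR adjusted p = 0.0159). Each call rested on single libraries: between the lineages it was lost without ectoderm-like replicate 1 or either XEN-like library (edgeR adjusted p = 0.147, 0.0911 and 0.0713), and against mESCs without mESC replicate 2 or either XEN-like library (0.0929, 0.0924 and 0.0692).

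Peg3 encodes a large zinc finger protein and is paternally expressed. Its level rose in both lineages, from 2.19 and 3.05 CPM in mESCs to 149 and 91.7 CPM in ectoderm-like and 51.8 and 21.9 CPM in XEN-like cells. It was 36.0-fold above mESCs in ectoderm-like cells (log2 5.17 ± 0.49 SE, edgeR adjusted p = 5.0e-05) and 12.0-fold above in XEN-like cells (log2 3.58 ± 0.50 SE, edgeR adjusted p = 0.000481), and 3.00-fold lower in XEN-like than in ectoderm-like cells (log2 -1.59 ± 0.38 SE, edgeR adjusted p = 0.0192). The difference between the lineages did not pass without ectoderm-like replicate 1 or XEN-like replicate 2 (edgeR adjusted p = 0.209 and 0.138).

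Igf2, the growth factor gene, and H19, the non-coding RNA beside it, did not differ beyond the threshold between the lineages. Igf2 stood at 69.5 and 117 CPM in ectoderm-like, 44.7 and 51 CPM in XEN-like and 2.62 and 2.18 CPM in mESC libraries. Both lineages were above mESCs, by 30.8-fold (log2 4.94 ± 0.46 SE, edgeR adjusted p = 4.4e-05) and 16.9-fold (log2 4.08 ± 0.47 SE, edgeR adjusted p = 0.00017), while XEN-like against ectoderm-like cells gave log2 -0.86 ± 0.35 SE (edgeR adjusted p = 0.139) although the libraries did not overlap. H19 was counted at 12.2 and 8.40 CPM in ectoderm-like, 5.59 and 9.11 CPM in XEN-like and 0.875 and 2.18 CPM in mESC libraries. Ectoderm-like cells exceeded mESCs (log2 2.40 ± 0.64 SE, edgeR adjusted p = 0.0224), a call that was lost with DESeq2 (adjusted p = 0.147) and without mESC replicate 1 or either ectoderm-like library (edgeR adjusted p = 0.131, 0.147 and 0.0726 in that order). In XEN-like cells H19 gave log2 1.96 ± 0.68 SE against mESCs, just outside the threshold (edgeR adjusted p = 0.0611), and passed it with the library totals alone or without the filter on low counts (adjusted p = 0.0417 and 0.0400).

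The pair on chromosome 12 was low in these libraries. Meg3, a maternally expressed non-coding RNA, was counted at 6.56 and 5.22 CPM in mESC, 18.3 and 7.11 CPM in ectoderm-like and 7.11 and 7.29 CPM in XEN-like libraries, and no comparison passed the threshold. Dlk1, a paternally expressed transmembrane relative of the Notch ligands, had 13 and 5 UMIs in the ectoderm-like libraries and 0 in both XEN-like and both mESC libraries, too few for the test. With a floor of 3 counts over a group at 0, Dlk1 in the ectoderm-like libraries was at least 8.22-fold higher than in the mESC libraries and at least 5.50-fold higher than in the XEN-like libraries. These limits leave out the counting error of the UMIs above 0, as do those of Magel2 and Dppa3 below.

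Against mESCs, 7 of the 9 tested genes were higher in ectoderm-like cells and 0 lower, where 9.85% of all tested genes were higher and 9.28% lower. Their libraries did not overlap in 8 of the 9 (63.2% of all tested genes). In XEN-like cells 2 were higher (Igf2 and Peg3) and 2 lower (Copg2 and Zdbf2), where 12.3% of all tested genes were higher, 10.5% lower and 22.8% either. Here 7 of the 9 did not overlap (61.2% of all tested genes). All 3 comparisons share libraries, so they do not repeat one another. In bulk libraries fewer cells with an RNA and less of it per cell cannot be told apart.

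**Figure D1:**
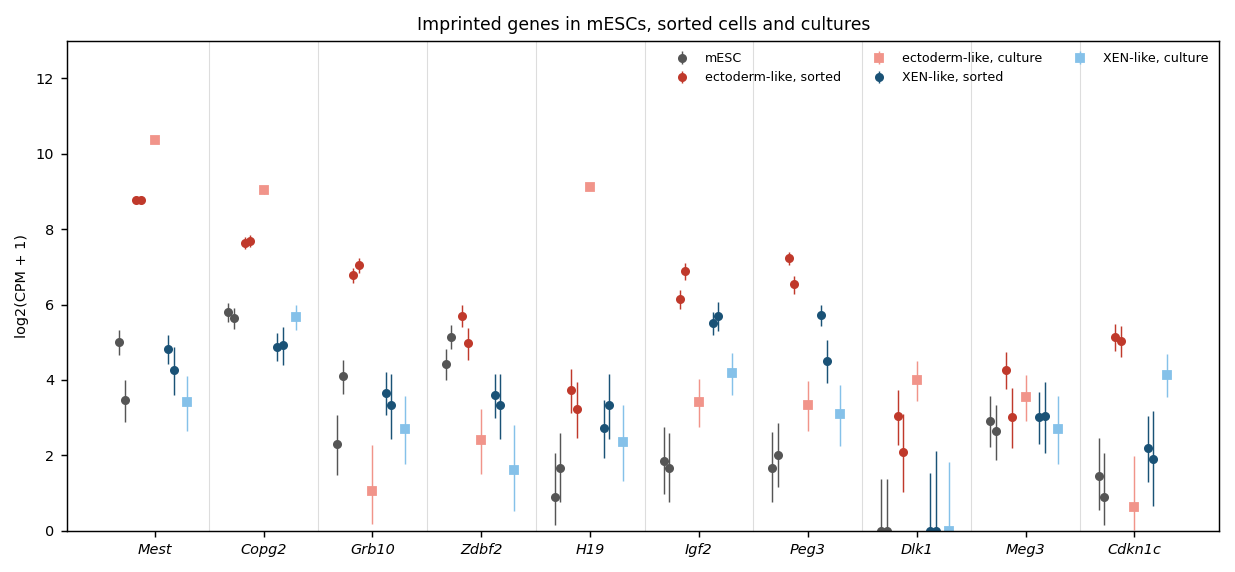
Bulk level of the 10 genes as log2(CPM + 1) in mESCs, sorted cells and long-term cultures. Each point is 1 library and bars are 95% Poisson intervals, which cover counting error only. Mest, Grb10 and Cdkn1c stand well above mESCs in both sorted ectoderm-like libraries and close to them in both sorted XEN-like libraries, whereas Igf2 and Peg3 are above mESCs in all 4 sorted libraries.

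The list of other imprinted genes held 52, of which most that passed the test were lower in XEN-like cells. Of 27 with enough counts, 8 were lower and 1 higher in XEN-like than in ectoderm-like cells, where 5.74% and 6.99% of all tested genes were, with a median log2 difference of -1.13 against -0.06 over all genes. Peg10, a domesticated retrotransposon gene needed for the placenta, had 276 and 63 UMIs in ectoderm-like and 8 UMIs in each XEN-like library (log2 -4.04 ± 0.67 SE, edgeR adjusted p = 0.00321). Ppp1r9a, which encodes the actin-binding protein neurabin, had 70 and 34 against 1 and 3 UMIs (log2 -4.34 ± 0.69 SE, edgeR adjusted p = 0.0028). The paternally expressed Magel2 (log2 -4.30), Peg12 (-2.49) and Ndn (-2.13), which lie in the region of the mouse genome that corresponds to the Prader-Willi locus, and the neuronal gene Nnat (-3.66) were also lower in XEN-like cells, with edgeR adjusted p between 0.00522 and 0.0257. The exception was Sfmbt2, a Polycomb-related gene with a role in extraembryonic tissue, which had 54 and 36 UMIs in the XEN-like libraries, 6 and 7 in the ectoderm-like ones and 4 and 9 in mESCs (log2 3.03 ± 0.50 SE against ectoderm-like cells, edgeR adjusted p = 0.00317).

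Against mESCs, 9 of the 27 other imprinted genes were higher in ectoderm-like cells and 0 lower (9.85% and 9.28% of all tested genes), and the largest changes were those of Magel2 (27 UMIs against 0, at least 12.3-fold higher), Peg10 (log2 5.82 ± 0.76 SE), Nnat (3.94 ± 0.91 SE), Ndn (3.87 ± 0.48 SE), Sgce (3.81 ± 0.48 SE) and Ppp1r9a (3.45 ± 0.58 SE). In XEN-like cells, where 12.3% of all tested genes were higher and 10.5% lower, 5 were higher, namely Sfmbt2 (3.17 ± 0.49 SE), Sgce (2.50 ± 0.51 SE), H13 (2.18 ± 0.38 SE), Gnas (1.89 ± 0.27 SE) and Ndn (1.74 ± 0.56 SE), and 4 were lower, namely Snurf (-1.76 ± 0.47 SE), Snrpn (-1.62 ± 0.40 SE), Ddc (-1.58 ± 0.51 SE) and Kcnq1ot1 (-1.28 ± 0.39 SE). Snurf and Snrpn come from 1 shared transcript, so their counts are not separate evidence. The edgeR adjusted p of these genes ranged from 0.000288 to 0.0449.

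Among genes that keep imprints, 0 of 10 passed the threshold for XEN-like against ectoderm-like cells (median log2 difference -0.71), while 3 were lower than in mESCs in ectoderm-like cells and 5 in XEN-like cells, where 9.28% and 10.5% of all tested genes were lower. Against mESCs, Dppa3, a factor that shields methylation in the zygote, fell from 99 and 80 UMIs to 2 and 0 in ectoderm-like cells and to 0 in both XEN-like libraries (at least 39.9-fold lower there). Zfp57 fell from 49 and 38 UMIs to 8 and 6 in ectoderm-like cells (log2 -2.48 ± 0.48 SE, edgeR adjusted p = 0.00403) and to 7 and 1 in XEN-like cells (log2 -3.11 ± 0.53 SE, edgeR adjusted p = 0.00163). Uhrf1, which guides maintenance methylation, was also lower in both (log2 -0.90 ± 0.25 SE and -1.26 ± 0.25 SE). Trim28 and Setdb1, which work with ZFP57, were lower in XEN-like cells (log2 -1.27 ± 0.31 SE and -1.15 ± 0.32 SE, edgeR adjusted p = 0.0125 and 0.0243), and in ectoderm-like cells they gave log2 -0.59 ± 0.31 SE and -0.79 ± 0.31 SE (edgeR adjusted p = 0.211 and 0.103). Neither differed past the threshold when the lineages were compared directly.

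In the insulin-like growth factor pathway, in which Igf2 and Grb10 act, 5 of 11 other tested genes were lower and 1 higher in XEN-like than in ectoderm-like cells, where 5.74% of all tested genes were lower and 6.99% higher. The gene that was higher was the ligand Igf1, with 219 and 38 UMIs in the XEN-like libraries, 6 and 8 in the ectoderm-like ones and 1 in each of mESCs (log2 4.18 ± 0.55 SE, edgeR adjusted p = 0.00129). Those lower were the receptor substrates Irs1 (log2 -2.36) and Irs2 (-3.04) and the binding proteins Igfbp2 (-2.13), Igfbp4 (-2.62) and Igfbp5 (-3.40), with edgeR adjusted p between 0.00118 and 0.0436. The receptor Igf1r was higher than in mESCs in both lineages (log2 2.63 ± 0.54 SE for ectoderm-like and 2.22 ± 0.56 SE for XEN-like cells, edgeR adjusted p = 0.00542 and 0.0137).

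The time course in whole cultures addressed when the genes changed. With 1 library per time point no test was run, and ratios are given with exact 95% intervals that cover counting error only. A gene is counted below when one of the samples compared has 50 UMIs or more. Most members were higher at 48 h than at 36 h. From mESCs to 24 h, 1 of 3 counted members (Mest) was more than 2-fold higher and 0 lower, where 5.51% and 7.32% of all counted genes were. From 24 h to 36 h, 1 (Mest) was higher and 1 (Zdbf2) lower, where 0.73% and 2.11% were. From 36 h to 48 h, 6 of 7 were more than 2-fold higher, where 7.68% were, and with counts scaled to Gapdh 4 of the 7. Against mESCs, 6 of 7 were more than 2-fold higher and 0 lower both at 48 h (11.5% and 9.15% of all counted genes) and at 96 h (17.6% and 10.1%). Between 48 h and 96 h, 3 of 8 were higher (9.95%) and 2 lower (6.76%), and with Gapdh scaling 0 were lower.

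Mest was counted at 47.9 CPM at 6 h, 33.9 at 12 h, 63.3 at 24 h, 218 at 36 h, 521 at 48 h, 275 at 60 h, 441 at 72 h, 405 at 84 h and 234 at 96 h. Its highest value was at 48 h, 25.4-fold above the summed mESC libraries (95% interval 20.6 to 31.7), and at 96 h it was 0.448 of the 48 h value (0.402 to 0.499). At 24 h it was above both mESC libraries, 3.08-fold over their sum (2.34 to 4.07), but the mESC libraries differed from each other by as much, 3.10-fold (1.91 to 5.20).

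Igf2 and Peg3 were between 1.49 and 6.48 CPM up to 36 h and far higher from 48 h on. Igf2 went from 4.24 CPM at 36 h to 51.6 at 48 h, 54.6 at 60 h, 62.1 at 72 h, 77.3 at 84 h and 125 at 96 h, with a step of 12.2-fold (5.75 to 30.9) between 36 h and 48 h. Peg3 went from 3.03 CPM at 36 h to 39.8 at 48 h, 72.7 at 60 h, 120 at 72 h, 94.4 at 84 h and 108 at 96 h. Both ended higher at 96 h than at 48 h, 2.42-fold (1.95 to 3.03) for Igf2 and 2.71-fold (2.13 to 3.48) for Peg3, in contrast to Mest. The size of the Peg3 step at 48 h rests on 1 library. In the CD24 quartiles of PDGFRA- cells sorted at 48 h, Peg3 stood lower, between 10.7 and 12.7 CPM. SCRB-seq cells also showed a smaller step, from 0.2087 UMIs per 10000 at 36 h to 0.5998 at 48 h. The cause of these differences was not tested.

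H19 had between 0 and 5 UMIs in each of the 6 libraries up to 36 h, then 36 UMIs at 48 h (14.6 CPM) and 97 at 96 h (49.7 CPM). That 96 h value did not match the sorted cells of the same time. It lay above both the ectoderm-like libraries (12.2 and 8.40 CPM) and the XEN-like libraries (5.59 and 9.11 CPM), and the cause was not tested. Cdkn1c went from 3.98 CPM at 24 h to 12.7 at 36 h, 21.5 at 48 h and 32.3 at 96 h. Copg2 ranged from 48.5 CPM at 12 h to 223 at 48 h with the same peak as Mest.

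Grb10 went from 10.9 CPM at 36 h to 27.2 at 48 h and 31.1 at 72 h, while its mESC libraries stood at 3.94 and 16.1 CPM, a difference of 4.09-fold (1.94 to 9.64). Zdbf2 showed no steady course, with 50.4 CPM at 6 h, 47.8 at 24 h, 23 at 36 h, 49.2 at 48 h and 23.1 at 96 h. Dlk1 stayed between 0 and 15 UMIs per library, with its highest level of 8.17 CPM at 72 h, and Meg3 between 5 and 35 UMIs, with its highest level of 18.1 CPM at 84 h.

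**Figure D2:**
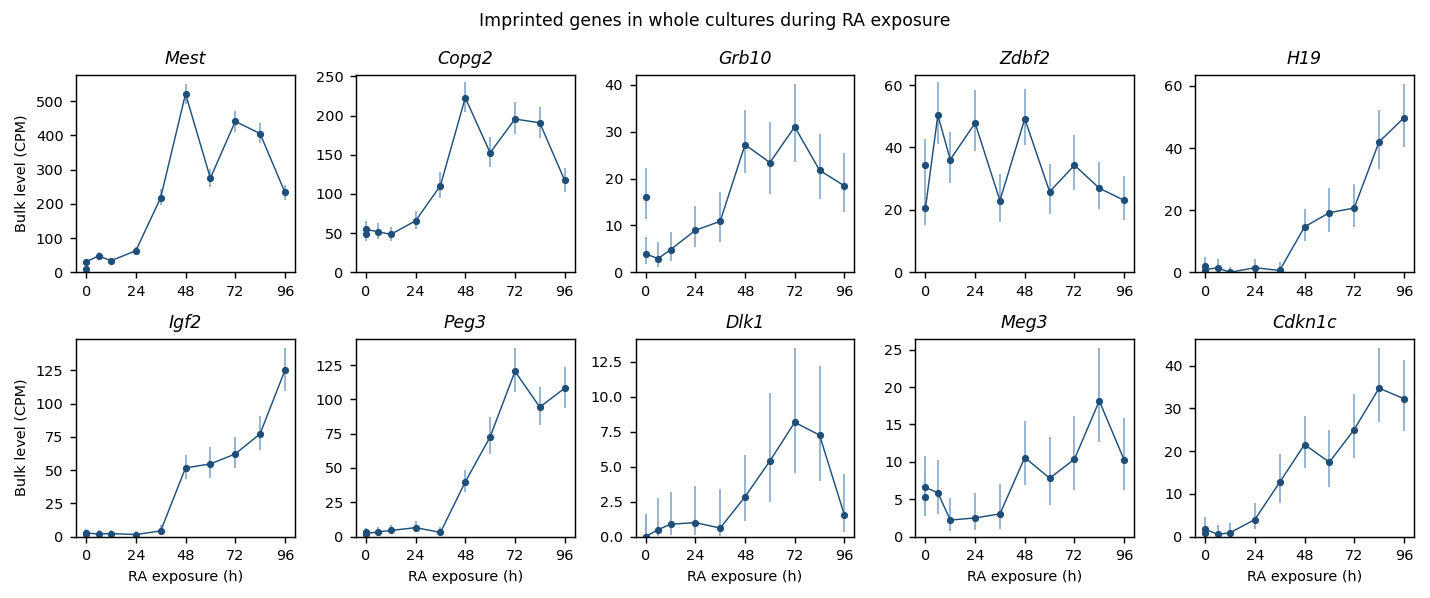
Bulk level (CPM) of the 10 genes in whole cultures against hours of RA exposure, with both mESC libraries at 0 h. Points are single libraries, bars are 95% Poisson intervals, and the line joins the first mESC library to the later time points. H19, Igf2 and Peg3 lie near 0 up to 36 h and higher from 48 h, while Mest peaks at 48 h with 521 CPM.

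Sorted gates at 48 h asked whether the genes followed CD24 before XEN-like cells were sorted. Of 4 genes counted, all 4 were more than 2-fold higher in the highest than in the lowest CD24 quartile of PDGFRA- cells, where 2.1% of all genes were. Mest went from 241 CPM in Q1 to 290 in Q2, 448 in Q3 and 635 in Q4, a ratio of 2.64 (2.34 to 2.98) between the ends, and Copg2 from 108 to 124, 166 and 275 CPM (2.56, 2.13 to 3.08). Grb10 stood at 21.4, 52.8, 52.6 and 79.6 CPM from Q1 to Q4 (3.72, 2.51 to 5.67), and Igf2 at 15.4, 31.4, 51.7 and 48.0 CPM (3.12, 1.93 to 5.21). The intervals of Q1 and Q4 did not overlap in any of these, but many neighbouring quartiles had overlapping intervals. This was so for Mest (Q1 and Q2), Copg2 (Q1 and Q2, Q2 and Q3) and Grb10 (Q2 and Q3, Q3 and Q4). For Igf2 it was so for every pair of neighbouring quartiles. Zdbf2, Peg3 and Cdkn1c showed ratios of 1.02 (0.575 to 1.80), 0.944 (0.473 to 1.88) and 0.776 (0.489 to 1.23), intervals that include 1. Summed ectoderm markers went over the same gates from 885 to 1035, 1422 and 1560 CPM and summed pluripotency markers went from 6664 to 6600, 5913 and 4292 CPM, and their part in the gradient was not tested.

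At 72 h the order by CD24 was not the same for every gene. From T1 to T3, Mest went from 256 to 370 and 409 CPM (ratio 1.60, 1.39 to 1.84) and Copg2 from 132 to 157 and 189 CPM (1.43, 1.17 to 1.75). Grb10 was level at 69.1, 77.6 and 69.1 CPM (0.999, 0.737 to 1.35). Igf2 ran the other way, from 106 to 71.5 and 33 CPM (0.310, 0.215 to 0.440), and H19 with it, from 20.2 to 10.6 and 5.37 CPM (26, 12 and 7 UMIs). Of 5 counted genes 0 were more than 2-fold higher and 1, Igf2, was more than 2-fold lower, where 2.19% and 7.95% of all counted genes were. Over these gates summed XEN markers went from 797 to 473 and 356 CPM, pluripotency markers from 4643 to 1983 and 1314 CPM and ectoderm markers from 1294 to 2047 and 2492 CPM, and their part in the values was not tested.

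The PDGFRA+/CD24- cells of 72 h already held little of most of these RNAs. All 7 counted genes were more than 2-fold lower there than in the summed PDGFRA- gates and 0 higher, where 15.8% and 7.08% of all counted genes were. Cdkn1c had 1 UMI against 85 (ratio 0.0322, 0.000806 to 0.184), Mest 19 against 1281 (24.6-fold lower, 15.7 to 41.1) and Grb10 15 against 267 (6.5-fold lower, 3.87 to 11.8). The smallest differences were those of Igf2, with 31 against 261 UMIs (3.08-fold lower, 2.12 to 4.62), and Peg3, with 33 against 183 (2.03-fold lower, 1.39 to 3.03). Pluripotency markers summed to 7169 CPM in the PDGFRA+ library, above all 3 PDGFRA- gates.

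**Figure D3:**
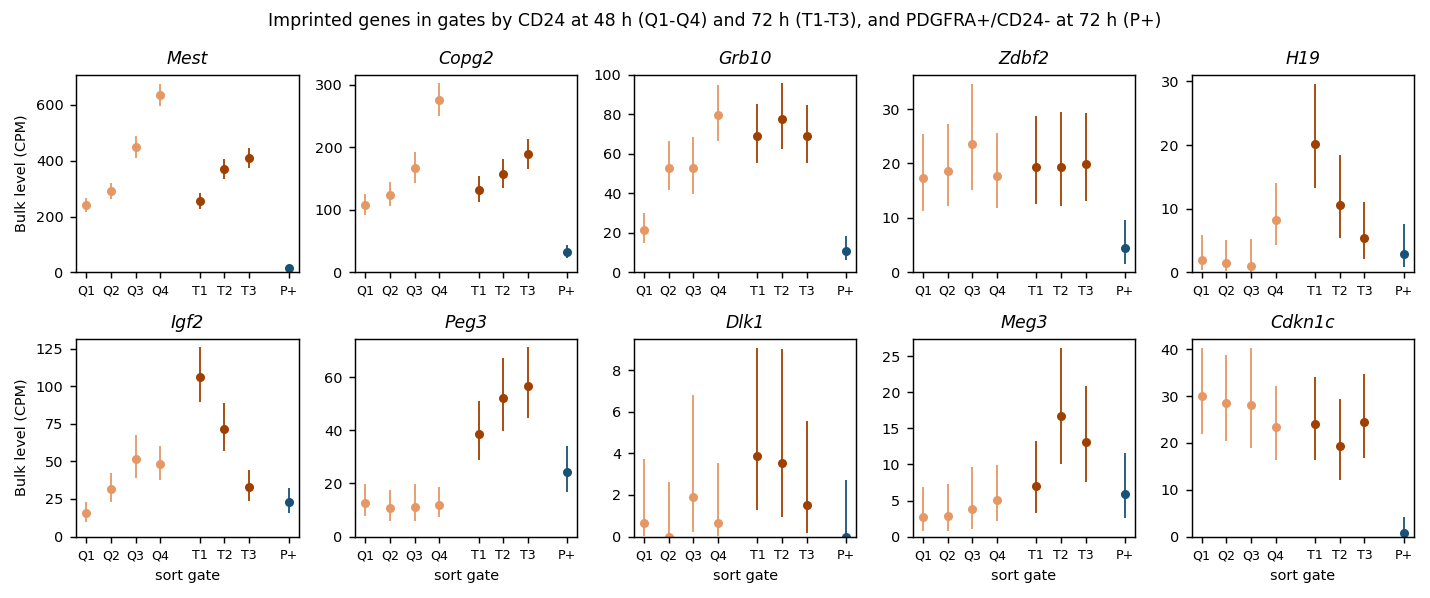
Bulk level (CPM) of the 10 genes in cells sorted by CD24 at 48 h (Q1 to Q4) and 72 h (T1 to T3), all PDGFRA-, and in PDGFRA+/CD24- cells at 72 h (P+). Each point is 1 library with its 95% Poisson interval. Mest and Copg2 are higher with more CD24 at both times, Igf2 is higher from Q1 to Q3 at 48 h and lower from T1 to T3 at 72 h, and P+ is lowest for Mest, with 14 CPM.

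The long-term cultures differed from the sorted cells, in opposite directions for different members. The ectoderm-like culture held 2474 UMIs of Mest (1324 CPM, 3.01-fold above the sorted cells, 2.82 to 3.21) and 1040 of H19 (557 CPM, against 12.2 and 8.40 CPM in the sorted libraries, 53.2-fold higher, 38 to 76.9). Igf2, which shares enhancers with H19, had 18 UMIs (9.64 CPM) in that same culture, 9.49-fold lower than in the sorted cells (5.90 to 16.2). H19 was thus higher and Igf2 lower in the culture than in both sorted libraries.

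Other members were near 0 there. Grb10 had 2 UMIs in the ectoderm-like culture against 196 and 203 in the sorted libraries, Cdkn1c 1 against 62 and 49, Peg3 17 against 268 and 142, and Zdbf2 8 against 92 and 47. Of 8 counted genes, 3 (Mest, Copg2 and H19) were more than 2-fold higher than in sorted ectoderm-like cells and 5 more than 2-fold lower, where 13.7% and 14.4% of all genes were. Dlk1 had 28 UMIs (15.0 CPM), its highest level in the bulk libraries. Ectoderm markers summed to 1653 CPM in the culture against 3270 and 2803 CPM in the sorted libraries, and XEN markers to 2235 CPM. The 6 mesoderm markers summed to 41.8 CPM, more than in any other bulk library, and the part of these markers' cells in the values was not tested.

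In the XEN-like culture Mest had 14 UMIs (9.66 CPM), 2.50-fold lower than in sorted XEN-like cells (1.40 to 4.79, and a ratio of 0.502 with Gapdh scaling), Peg3 11 (7.59 CPM, 5.42-fold lower, 2.93 to 11.1) and Igf2 25 (17.2 CPM, 2.72-fold lower, 1.77 to 4.35). These were the 3 of 4 counted genes that were more than 2-fold lower, where 21.8% of all counted genes were, and 0 were higher (17.2%). Cdkn1c was higher, with 24 UMIs (16.6 CPM) against 7 and 3 in the sorted libraries (5.08-fold, 2.34 to 11.9). Mest and H19 stood 137-fold (81.6 to 251) and 135-fold (61.6 to 367) higher in the ectoderm-like than in the XEN-like culture, and all 3 counted genes, Copg2 included, were more than 2-fold lower in the XEN-like one, where 24.9% of all counted genes were. Ectoderm markers summed to 1552 CPM in the XEN-like culture against 611 and 323 CPM in the sorted XEN-like libraries, and its part in the values was not tested.

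The tail-to-tail overlap of Mest and Copg2 touches every value of Copg2 above and below. Where members are counted, these 2 genes may therefore not be separate evidence. Their RefSeq transcripts share 912 exonic bases on opposite strands (chr6:30747554-30748465), at the 3′ end of both, where the UMI reads are taken. Over the 25 bulk libraries, which share gene set and scaling, Copg2 followed Mest almost in a straight line (Pearson r = 0.994 of CPM), with 0.368 CPM of Copg2 per CPM of Mest above an intercept of 33.2 CPM. In the 16 libraries with Mest over 100 CPM the ratio of Copg2 to Mest UMIs lay between 0.371 and 0.555. Over all 25 it reached 5.14, in the XEN-like culture (72 Copg2 and 14 Mest UMIs). There Copg2 was higher (49.7 CPM) than in the sorted XEN-like libraries (28.4 and 29.2 CPM), while Mest was lower. Whether reads were assigned by strand is not given in the sources used here, so reads of the 2 genes cannot be told apart in the shared stretch. Peg3 and its antisense RNA Peg3as (RefSeq Peg3os, chr7:6706760-6707624) are alike in this: all 865 bases of Peg3as lie in Peg3 exons, and Peg3as had 289 UMIs with r = 0.968 to Peg3 on the log2(CPM + 1) scale.

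**Figure D4:**
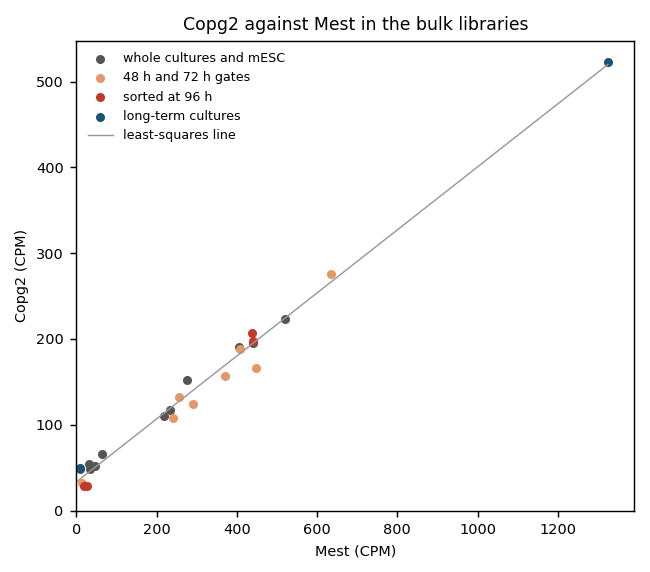
Copg2 against Mest (both in CPM) in the 25 bulk libraries, 1 point per library, with a least-squares line. The points lie close to the line with slope 0.368 and intercept 33.2 CPM, from the XEN-like libraries near the origin to the ectoderm-like culture at the upper right.

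The likeness of whole patterns was measured by Pearson's r of log2(CPM + 1) over the same 25 libraries, for genes with at least 200 UMIs. After Copg2 (0.948), Mest was most like Peg10 (0.941) and Zfp618 (0.938). Grb10 was most like Tnfrsf19 (0.940), Kynu (0.885) and Ipo5 (0.885), and Cdkn1c like Kynu (0.897), Gap43 (0.884) and Sort1 (0.866). For Zdbf2 they were Nasp (0.920), Lig1 (0.914) and Ddx11 (0.901), and for H19 Cul7 (0.875), Nrp1 (0.856) and Acat1 (0.853). Igf2 was most like Lpar6 (0.901), Slc35a1 (0.901) and Commd3 (0.899), Peg3 after Peg3as like Ccne2 (0.906) and Hmgb3 (0.899), Copg2 after Mest like Mfap2 (0.936) and Gulp1 (0.934), and Meg3 like Prdm4 (0.868), Pcnp (0.846) and 2610301G19Rik (0.814). Among the members themselves, Igf2 and Peg3 had r = 0.867, Grb10 and Cdkn1c 0.783, and H19 and Igf2 0.513. These values describe the libraries and carry no test.

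SCRB-seq gave the same genes per cell, with 1 plate per time point and no test. Mest went from 0.101 UMIs per 10000 in mESCs (19 UMIs in 282 cells) to 5.08 at 48 h (813 UMIs in 277 cells) and 3.74 at 96 h (272 UMIs in 137 cells). The share of cells with a Mest UMI was 6.74% in mESCs, 42.5% at 36 h, 65.7% at 48 h and 46.7% at 96 h. Median depth differed between these time points, from 3560 UMIs at 24 h to 5069 at 6 h, which touches shares of cells more than levels.

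Peg3 went from 0.101 per 10000 in mESCs to 3.19 at 96 h, and Igf2 from 0.0265 to a highest value of 2.89 at 60 h. Igf2 was already higher at 36 h in these cells (0.315, 77 UMIs, 13.8% of cells) than at 24 h (0.0131, 2 UMIs), whereas bulk still had 4.24 CPM at 36 h (7 UMIs). Cdkn1c was highest at 60 h with 3.23 per 10000 and stood at 0.949 at 96 h, whereas in bulk it was lower at 60 h (17.4 CPM) than at 96 h (32.3 CPM). H19 had 0 UMIs in all 902 cells of the first 3 time points and 55 at 96 h, of which 17 came from 1 cell. Zdbf2 stayed between 0.535 and 1.69 per 10000 and Grb10 went from 0.748 in mESCs to 0.0588 at 24 h and 2.46 at 72 h.

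At 96 h the cells were clustered on 819 variable genes from which all imprinted genes of the list had been removed, giving 72 ectoderm-like and 65 XEN-like cells. All 11 ectoderm and all 11 XEN markers were higher in the cluster named for them, but the intervals of 2 included a ratio of 1 (ectoderm-like over XEN-like, Pdgfra 0.750, 0.521 to 1.08, and Pax6 1.32, 0.312 to 6.34). When the cells were clustered on log2 values, Pdgfra was at 0.168, Sparc at 0.255 (0.434 before) and Sox17 at 0.199 (0.482 before). The 10 genes of the largest fold held 1 marker of its own name in each cluster (Sox11 and Gata4), with the pluripotency gene Dppa5a also among those of the XEN-like cluster. These are cells of 1 culture, so the values have no test, and for Mest, Grb10, Copg2 and Zdbf2 they repeat what chose the genes.

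Grb10 stood at 2.71 UMIs per 10000 in ectoderm-like against 0.559 in XEN-like cells (ratio 4.85, 95% interval 2.95 to 8.37), Zdbf2 at 2.04 and 0.471 (4.33, 2.51 to 7.94), Mest at 5.42 and 1.83 (2.97, 2.23 to 4.01), Copg2 at 2.43 and 0.942 (2.58, 1.71 to 3.98) and Peg3 at 4.21 and 2.03 (2.07, 1.55 to 2.79). These 5 of 9 genes with at least 50 UMIs were more than 2-fold higher in the ectoderm-like cluster, where 6.64% of all genes with that many UMIs were. Mest, Copg2, Grb10 and Zdbf2 were chosen with their large fold in this cluster known, so the count is a description and no support. Clustered on log2 values, Zdbf2 was at 1.79 (1.17 to 2.73) and Peg3 at 1.24 (0.938 to 1.62), so that 3 of the 9 were past 2-fold. Meg3 stood at similar levels (4.52 and 4.30 per 10000, ratio 1.05, 0.839 to 1.32). H19 was lower in ectoderm-like cells (0.362 against 1.21 per 10000, ratio 0.299, 0.151 to 0.561), from 11 and 10 cells with a UMI, and also with the clusters from log2 values (0.199, 0.0618 to 0.495). Among cells with more than 4000 UMIs the ratio was 1.95, with an interval that includes 1 (0.662 to 6.90). Igf2 gave 1.68 (1.17 to 2.44), 0.519 (0.332 to 0.787) with the clusters from log2 values and 1.98 (1.26 to 3.20) among cells with more than 4000 UMIs, so its direction depended on the clustering.

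**Figure D5:**
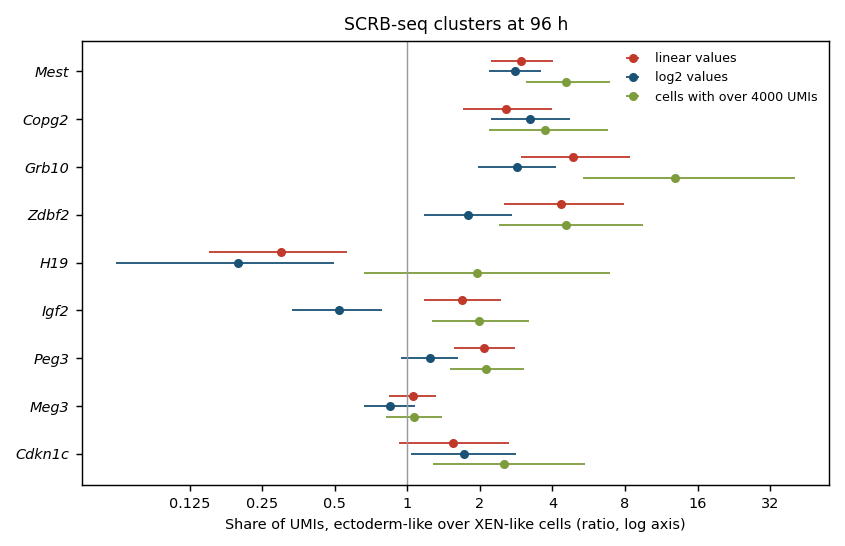
Ratio of the share of UMIs in ectoderm-like over XEN-like SCRB-seq cells at 96 h for 9 genes (log axis), with exact 95% intervals conditional on the summed counts, for 2 ways of clustering and for the cells with more than 4000 UMIs. Mest, Copg2, Grb10 and Zdbf2 lie above 1 in all 3 settings, Igf2 lies below 1 for the clusters from log2 values, and H19 lies above 1 for the cells with more than 4000 UMIs.

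At 72 h, cells classed by their highest correlation with the mean profiles of mESCs and of the 96 h clusters, a step added after the data were seen, gave 25 XEN-like and 180 ectoderm-like cells. Mest stood at 1.44 per 10000 (0.788 to 2.42) in the XEN-like and 3.80 (3.44 to 4.19) in the ectoderm-like class, and Grb10 at 0.618 (0.227 to 1.34) and 2.63 (2.33 to 2.95). Igf2 was 1.44 (0.788 to 2.42) and 1.51 (1.28 to 1.75), with overlapping intervals. The 30 cells of the mESC class were not lower than the ectoderm-like class beyond the intervals for Mest (4.65, 3.52 to 6.02) and Grb10 (2.45, 1.65 to 3.49). Igf2 was 0.653 (0.282 to 1.29) in the mESC class. At 48 h the order was the opposite for Mest and Copg2. The XEN-like class then had 5 cells and the ectoderm-like class 47. Mest stood at 13 per 10000 (8.34 to 19.4) in the first and 3.08 (2.33 to 4.00) in the second. Copg2 stood at 10.3 (6.20 to 16.1) and 2.31 (1.66 to 3.12). The XEN-like values rest on 24 and 19 UMIs, and all these intervals cover counting error only, not the spread between cells. The 225 cells of the mESC class held 5.23 (4.86 to 5.63) of Mest and 2.11 (1.88 to 2.37) of Copg2. Grb10 was 1.24 (1.06 to 1.43) in the mESC class and 0.495 (0.226 to 0.939) in the ectoderm-like class, with 0 UMIs in the XEN-like class.

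SMART-seq2 covered the first 48 h at the level of RPKM scaled per cell, with 82 cells each in mESCs and at 48 h and 1 sample per time point, so that no test was run. Of 9 genes with a mean of at least 10, 8 were more than 2-fold higher at 48 h, where 12.5% of all such genes were, with H19, listed at 0 in all mESCs, among them. Of such genes 7.29% were more than 2-fold lower, and 0 members were. Zdbf2 was neither (27.8 ± 28.6 and 27.4 ± 29.5 RPKM, mean ± SD over cells). Mest went from 36.3 ± 38.3 RPKM in mESCs to 71.7 ± 124 at 12 h (86 cells), 79.6 ± 93.7 at 24 h (89 cells) and 652 ± 786 at 48 h. Cdkn1c had means of 5.99, 8.11, 22.3 and 86.5 RPKM in the order of time, and the share of cells above 1 RPKM went from 12.2% (exact 95% interval 6.01 to 21.3) to 85.4% (75.8 to 92.2).

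Igf2 and H19 were not seen above 1 RPKM in mESCs and were seen at 48 h. Igf2 was above 1 RPKM in 0 of 82 mESCs, which allows a share of up to 4.4% (exact binomial interval), and in 63.4% of the cells at 48 h (52 to 73.8), while H19 was above 1 in 0 of 82 mESCs and in 35.4% at 48 h (25.1 to 46.7). Peg3 went from 52.4% (41.1 to 63.6) to 82.9% (73 to 90.3) of the cells. Meg3 was present in most cells throughout, 91.5% (83.2 to 96.5) of mESCs and 90.2% (81.7 to 95.7) at 48 h.

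Among the 48 h cells, the 10 with the highest Pdgfra and the 29 with the highest Cd24a, shared 3 cells, and no test was run between them. Mest was 395 ± 475 RPKM in the first and 793 ± 980 RPKM in the second, and Cdkn1c 38 ± 51.8 and 75.3 ± 68.2 RPKM (mean ± SD over cells), with medians of 15.0 and 54.9 RPKM. Cdkn1c was above 1 RPKM in 60% (26.2 to 87.8) and 93.1% (77.2 to 99.2) of these cells. For Mest these shares were 100% (69.2 to 100) and 89.7% (72.6 to 97.8). Means of Copg2, Grb10, Igf2, Dlk1 and Meg3 were also lower in the cells with the highest Pdgfra. Those of H19, Peg3 and Zdbf2 were higher there. H19 was 45.7 ± 121 RPKM in the cells with the highest Pdgfra and 17.4 ± 30.2 RPKM in those with the highest Cd24a. The first of these means rested largely on 1 cell with 389 RPKM, and the medians were 4.92 and 0 RPKM. Peg3 was 46 ± 32.4 and 37.5 ± 33.3 RPKM in the same order. Zdbf2 was 30.7 ± 29.6 and 28.03 ± 28.5 RPKM, a difference far smaller than the spread between cells.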

How the data were processed

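Bulk and SCRB-seq values are counts: the authors aligned reads to mouse RefSeq mRNAs with bwa 0.7.4, counted unique UMIs per gene and library or well, and deposited the counts without normalization. SMART-seq2 values are RPKM, deposited after the authors' alignment with TopHat and normalization with Cuffnorm. Of the RPKM values, 0.127% to 0.14% per sample had a decimal comma and were read as decimals. Damaged values (3 in the bulk table) led to the removal of 2 genes. The bulk libraries held 1063830 to 2459483 UMIs, and the SCRB-seq cells kept (more than 2000 UMIs, single cells sorted into wells, no doublet caller) had a median of 4205 UMIs.

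The 3 comparisons of sorted cells and mESCs used edgeR 4.0.16 (quasi-likelihood fit of 6 libraries, TMM, default filter, Benjamini-Hochberg adjustment over 8947 genes, threshold 0.05), with a biological coefficient of variation of 0.247. DESeq2 1.42.0 was an alternative. The labels call the sorted libraries biological replicates. For the 2 mESC libraries they do not say so, but the paper describes biological replicates for mESCs as well as for both sorted populations. Libraries without replicates were described by exact Poisson intervals and conditional intervals of ratios (95%), which cover counting error only, and counted as changed past 2-fold with at least 50 UMIs in the larger. SCRB-seq cells at 96 h were clustered by k-means (1 minus Pearson correlation, 50 starts) on the 5% most variable genes. Each SMART-seq2 cell was brought to the median of the mESC cells' totals.

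The members, the gene lists and the tests were chosen with earlier results of these data known. All 10 members are described. Of other imprinted genes, up to 6 per comparison and direction are named, by largest log2 change past the threshold, with at least 10 UMIs in every library of a group and all pairs of libraries in the same direction. The steps across many genes were tested on simulated data. Each result was recomputed with other size factors, without the low-count filter, with other libraries, with Gapdh scaling, and with other cell filters, clustering and RPKM summaries.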

Additional observations from a re-analysis of the deposited data

Results flagged for a closer look

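Between 48 h and 72 h the order along CD24 turned around for a pair of genes. Igf2 was 3.12 times as high in the highest as in the lowest CD24 quartile at 48 h (95% interval 1.93 to 5.21) and 0.310 times as high in the highest as in the lowest tercile at 72 h (0.215 to 0.440). H19 gave 4.09 (1.12 to 22.4, from 13 against 3 UMIs) at 48 h and 0.266 (0.0975 to 0.629, from 7 against 26 UMIs) at 72 h. Each gate is 1 library and the gates differ in their cut points, so the difference between the times was not tested.

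Growth after sorting moved a pair of genes in opposite directions in the lineages. Mest was 3.01 times as high in the ectoderm-like culture as in the sorted cells and 0.400 times as high in the XEN-like culture as in its sorted cells. Cdkn1c was 0.0161 times as high in the ectoderm-like culture (1 UMI against 111) and 5.08 times as high in the XEN-like culture (24 UMIs against 10). The cultures are 1 library each and were kept under different conditions, attached and as aggregates, and this difference was not tested either.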

How the results depend on the processing

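The 655 recomputed values were counts of genes and values of single genes. Of the counts, 159 stayed within a set fold of the main count and 20 moved further. Of the single-gene values, 414 kept their direction and side of the threshold or stayed within the error. Another 27 moved outside the error, 17 changed direction, 16 lost the threshold and 2 gained it. Over all genes, DESeq2 passed 709 genes for XEN-like against ectoderm-like cells and 1095 for ectoderm-like cells against mESC, where edgeR passed 1139 and 1711. Leaving out 1 library at a time gave 296 to 1371, 876 to 1750 and, for XEN-like cells against mESC, 1267 to 1962 genes (2042 with all libraries). A group left with 1 library is then assumed to vary like the others. Of the members, 4 to 7 were lower in XEN-like than in ectoderm-like cells, 6 to 8 higher in ectoderm-like cells than in mESC, and 2 to 4 passed for XEN-like cells against mESC, of which 0 to 2 were lower.

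In the edgeR fits the sign turned for values that were not called. For XEN-like cells against mESC these were Mest (log2 0.18 with library totals only, 0.045 with 4 libraries, -0.62 to 0.94 leaving out 1 library), Grb10 (0.076 with library totals only, -0.87 to 1.21 leaving out 1 library) and Meg3 (-0.067 to 0.25). Between the lineages H19 ranged from -0.87 to 0.070 and Meg3 from -1.13 to 0.085, and for ectoderm-like cells against mESC Zdbf2 ranged from -0.12 to 0.69. The cause was not tested.

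With Gapdh scaling, genes more than 2-fold lower became 0 for 36 h against 24 h (from 1) and 0 for 96 h against 48 h (from 2), and in the XEN-like culture 1 gene was more than 2-fold higher (from 0) and 2 lower (from 3, with Mest at a ratio of 0.502). Clustering on log2 values left 3 members more than 2-fold higher in ectoderm-like cells (from 5, with Zdbf2 at 1.79 and Peg3 at 1.24) and Igf2 at 0.519, and cells with more than 4000 UMIs gave H19 at 1.95. Gapdh scaling moved the median log2 ratio of all genes from -0.099 to 0.77 for the ectoderm-like culture against sorted cells and from 0.028 to -0.28 for Q4 against Q1.

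Replicate numbers do not mark a shared origin in the labels. Deviations of same-numbered libraries had a correlation of 0.351 for the sorted pairs, 0.103 for mESC and ectoderm-like and 0.0267 for mESC and XEN-like cells. With the replicate number as a block, 6, 7 and 4 members passed, as without it, and 1515, 2167 and 2515 of all genes did. The block turned the sign of Grb10 for XEN-like cells against mESC (log2 0.018).

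Depth limits the folds of genes with fewer than 10 UMIs per library, which in mESCs were Igf2 (6 and 5 UMIs), Peg3 (5 and 7), Cdkn1c (4 and 2), H19 (2 and 5) and Dlk1 (0 in both), and in XEN-like cells Cdkn1c (7 and 3) and Dlk1 (0 in both).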

Other observations

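Meg3 was far higher in SCRB-seq cells than in the bulk libraries of the same time points. Its summed level was 304 CPM in the mESC cells against 6.56 and 5.22 CPM in the mESC libraries, 243 against 10.6 at 48 h and 442 against 10.2 at 96 h. Over all genes with at least 20 UMIs in the cells, the median difference of log2(CPM + 1) was 1.13 in mESCs, 0.77 at 48 h and 0.87 at 96 h. Other long non-coding RNAs, all chosen after their values were seen, varied. Against the first mESC library, Kcnq1ot1 had 2687 against 69.6 CPM, Neat1 141 against 0.437 and H19 0 against 0.875, and Malat1 was 11.3-fold higher in the cells in mESCs, 1.45-fold at 48 h and 1.57-fold at 96 h. Among members, Grb10 stood at 74.8 in mESC cells against 3.94 and 16.1 in the libraries and Cdkn1c at 23.9 against 1.75 and 0.871, whereas Mest at 48 h was 508 against 521.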
